A study of Homo sapiens with 6 samples.

Results

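The BCL2 family regulators of apoptosis were examined in HCT116 cells, a human colorectal cancer line, after 2 perturbations of the YAP pathway. The 10 members were listed by gene symbol, and the rule uses no measured value, although earlier results of these data were known when the list was made. They are the pro-survival genes BCL2, BCL2L1, BCL2L2 and MCL1, the pore-forming effector BAK1, and the BH3-only genes BID, BAD, BIK, BCL2L11 and PMAIP1. They are 10 of 19871 gene symbols in the deposited mRNA tables and carry 68 of the 92866 listed transcripts.

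RNA of HCT116 cells was sequenced in 3 groups of 2 libraries, 6 in all. The NC group was a negative control, and what it was transfected with is not stated. The GAS5 group is labelled for GAS5, a long noncoding RNA that the study overexpressed, and the labels mention a plasmid, although the same label field (sirna) is used for every group. The siYAP group received siRNA against YAP, the transcriptional coactivator at the end of the Hippo pathway, and which siRNA it was is not stated. All groups are transfected cultures of 1 cell line, grown in the same medium. GAS5 itself has no entry in the mRNA tables, so only the siYAP label could be checked in these tables. YAP1 had 3480 mean counts in NC, 2889 after scaling in GAS5 and 1564 after scaling in siYAP, a log2 ratio to NC of -0.27 (95% counting interval -0.32 to -0.22) in GAS5 and -1.15 (-1.22 to -1.09) in siYAP.

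The family controls the mitochondrial route to apoptosis. Effectors such as BAK1 open pores in the outer mitochondrial membrane, which releases cytochrome c and starts the caspase cascade. Pro-survival proteins hold effectors in check, and BH3-only proteins release that check or activate the effectors directly, each by inserting a short helix, the BH3 motif, into a groove on its partner. In colorectal cancer the family is studied above all for BCL-XL, the long protein of BCL2L1, on which many of these cells depend for survival.

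The motif that gives the BH3-only group its name was read from the reference coding sequence of 1 transcript per member, because it is the stretch that the members share although the members were picked by name only. The pattern searched in the translated sequence was leucine or methionine, 2 residues of any kind, isoleucine, methionine, phenylalanine, valine or alanine, then glycine or serine, and aspartate. The residues it allows are exactly those found in the 10 members, so a match in each was fixed by the pattern. It occurred 1 time in the transcript chosen for each of the 10 members. When the longest complete coding sequence of each gene was searched instead, it was found in 9 of the 10 members, all but PMAIP1. It was found in 9.76% of 19530 protein-coding genes. These shares cannot be weighed against each other, because the pattern covers the members' own residues. The 8 codons that begin at the match follow, 5′ to 3′, with the glycine or serine codon and the invariant aspartate codon in capitals. All are coding exon sequence of GENCODE 29 on GRCh38.
BCL2, chr18:63318355-63318378, minus strand: ctccgccaggccGGCGACgacttc
BCL2L1, chr20:31721928-31721951, minus strand: ctgagggaggcaGGCGACgagttt
BCL2L2, chr14:23307903-23307926, plus strand: atgcgggcagctGGAGATgagttc
MCL1, chr1:150578871-150578894, minus strand: ttacgacgggttGGGGATggcgtg
BAK1, chr6:33575393-33575416, minus strand: ctcgccatcatcGGGGACgacatc
BID, chr22:17739421-17739444, minus strand: ctcgcccaggtcGGGGACagcatg
BAD, chr11:64271628-64271651, minus strand: ctccggaggatgAGTGACgagttt
BIK, chr22:43127716-43127739, plus strand: ctggcctgcatcGGGGACgagatg
BCL2L11, chr2:111150103-111150126, plus strand: ttgcggcgtattGGAGACgagttt
PMAIP1, chr18:59902673-59902696, plus strand: ctcaggagatttGGAGACaaactg
BAD alone has a serine codon in front of the aspartate, and BCL2L2 alone starts with methionine. A match describes these letters and does not show binding.

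Each deposited value is 1 mean over the 2 libraries of a group, so no spread between replicates or SD could be computed, and no test was run here on any value. The mean counts of a group summed to 27206123 (NC), 25521577 (GAS5) and 26298036 (siYAP). Member values are counts summed over transcripts of a symbol. For the ratios to NC, the counts of both treated groups were scaled to NC by a factor of 1.08 each. Counts are printed before this scaling unless said otherwise, so a printed count can lie below NC where its ratio does not. Differences are log2 ratios to NC after a prior count of 2 was added. The bracketed ranges are 95% Wilson intervals on the counts behind the means. They cover counting error only, not the spread between cultures or the choice of scaling. A difference was called at 2-fold. Levels are compared between genes as FPKM, which allows for transcript length. Since RNA of whole cultures was read, a shift in the mixture of cells and a shift in RNA per cell cannot be told apart.

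The cultures had the RNA of epithelial cells. EPCAM, CDH1, KRT8, KRT18, KRT19 and CDX2 all had at least 395.5 mean counts in NC, whereas KRT20 had 13 and VIL1 was listed at 0. The 6 epithelial markers that averaged 50 or more counts had a median log2 ratio of 0.15 in GAS5 and 0.42 in siYAP. KRT8 was at 0.48, KRT18 at 0.48 and KRT19 at 0.52 in siYAP, and CDH1 was at -0.44 in GAS5 and 0.23 in siYAP. Among markers of other cells, PTPRC and DCN were at 0 in every group, and CD3E, PECAM1 and COL1A2 had at most 6 mean counts in any group. CD68 had 202.5 mean counts in NC, with log2 ratios of 0.57 (0.39 to 0.76) in GAS5 and 0.12 (-0.08 to 0.32) in siYAP. COL1A1 had 378.5, with ratios of 0.66 (0.53 to 0.80) and 0.62 (0.49 to 0.76), and VWF had 31, with ratios of -0.06 (-0.58 to 0.46) and 0.68 (0.25 to 1.18). The part of these markers in the results below was not tested.

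In HCT116 cells the family spanned more than 2 orders of magnitude, with BCL2L1 on top and BCL2 at the bottom in each of the 3 groups. In NC the summed FPKM was 145 for BCL2L1, 44.1 for MCL1, 30.6 for BID, 29.8 for BAD, 22.9 for PMAIP1, 13.8 for BAK1, 9.74 for BCL2L2, 7.75 for BIK, 6.26 for BCL2L11 and 1.07 for BCL2. Only 4.09% of the 11907 genes compared had a higher FPKM than BCL2L1 in NC, while 96.4% had a higher FPKM than BCL2. The order was the same in GAS5 and siYAP except among BID, BAD and PMAIP1, and between BCL2L2 and BIK. BIK stood below BCL2L2 in NC (7.75 against 9.74 FPKM) and above it in GAS5 (10.8 against 7.92) and siYAP (12.7 against 10.1). Of the 9 neighbouring pairs in each group, 1 was within counting error. That pair was BID and BAD in NC and GAS5, and PMAIP1 and BID in siYAP.

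**Figure D1:**
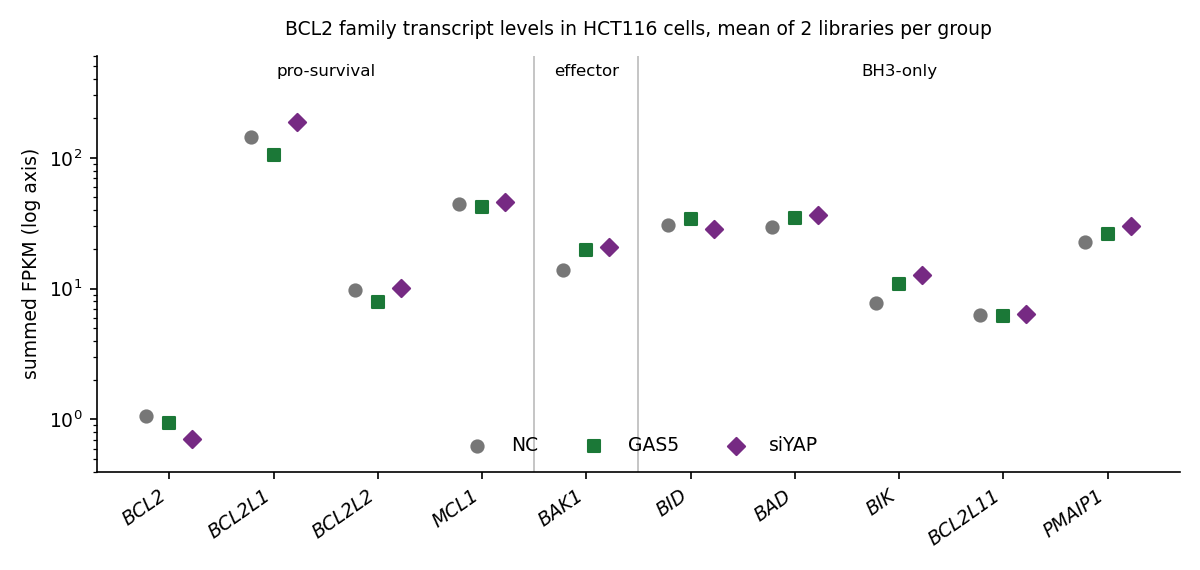
Summed FPKM of each member (vertical log axis) in NC (circles), GAS5 (squares) and siYAP (diamonds), each point the authors' mean over 2 libraries with no error available. BCL2L1 is the highest member and BCL2 the lowest in every group, from 187 FPKM for BCL2L1 in siYAP to 0.71 for BCL2 in siYAP.

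No member differed from NC by 2-fold in either treatment. That was 0 of 10 in GAS5, where 1.06% of the 11907 genes that averaged 50 or more counts over the groups were past 2-fold, and 0 of 10 in siYAP, where the share of all genes was 0.773%. At 1.5-fold the count was 0 of 10 in GAS5 (4.44% of all genes, 2.38% in the upward direction alone) and 2 of 10 in siYAP (7.21% of all genes, 3.46% upward alone). Those 2 were BAK1 and BIK, both higher. The median size of the difference was 0.25 for the members against 0.16 for all genes in GAS5, and 0.39 against 0.21 in siYAP, on the log2 scale.

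Among the 10 members the sign of the ratio followed role in the GAS5 group, a difference that was not tested. All 4 pro-survival genes had log2 ratios below 0, with a median of -0.19, and all 6 effector and BH3-only genes had ratios above 0, with a median of 0.25, beside a median of -0.01 over all genes. The counting interval included 0 for BCL2, MCL1 and BCL2L11, so the direction is not resolved for those 3, and BCL2L11 was below 0 under scaling by total counts (-0.01) and as summed FPKM (-0.03). Of other BH3-only genes outside the 10, BMF had the other sign in GAS5, at -0.42 (-0.66 to -0.19). HRK at -0.25 (-0.52 to 0.01) and BBC3 at 0.01 (-0.13 to 0.14) had intervals that included 0. In siYAP the roles did not part in this way. Of the pro-survival genes 3 were above 0 and 1 below, with a median of 0.12, and of the effector and BH3-only genes 5 were above 0 and 1 below, with a median of 0.46, beside 0.02 over all genes. The same NC means enter both comparisons, and any error in them shifts the 2 ratios of a gene alike.

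**Figure D2:**
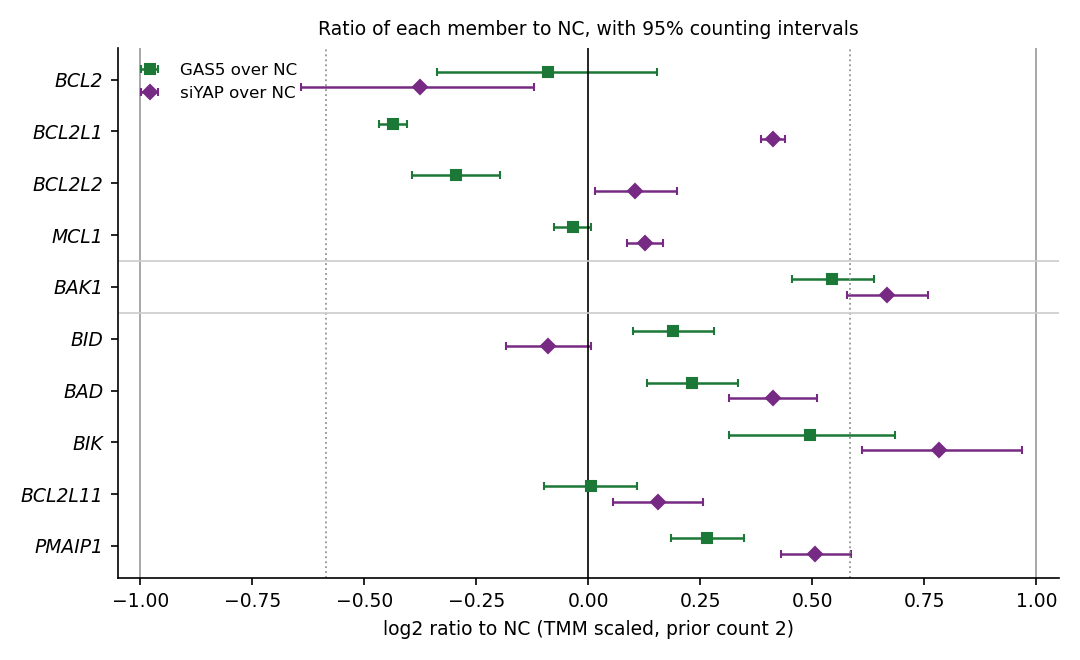
Log2 ratio to NC for each member in GAS5 (squares) and siYAP (diamonds), with 95% counting intervals as bars; solid grey lines mark 2-fold and dotted lines 1.5-fold. BCL2L1 lies at -0.44 in GAS5 and 0.41 in siYAP, and BAK1 and BIK in siYAP are the points beyond a dotted line.

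BCL2L1, the gene of BCL-XL, had the highest summed FPKM of the family in these cells. Its summed counts were 9872 in NC, against 6768 in GAS5 and 12133 in siYAP, or 7298 and 13137 after scaling. The GAS5 value was the lowest of the 3 groups and the siYAP value the highest, on opposite sides of NC. The log2 ratio to NC was -0.44 (-0.47 to -0.40) in GAS5, or 0.739 times NC, and 0.41 (0.39 to 0.44) in siYAP, or 1.33 times NC. Set against each other, each after its scaling to NC, GAS5 over siYAP gave -0.85 (-0.88 to -0.82). Only 3.98% of all genes differed more between the treated groups. FPKM showed the same order, with 145 in NC, 106 with GAS5 and 187 with siYAP. These sums hold more than BCL-XL, since short, incomplete and assembled transcripts are included. BCL2L1-201 and BCL2L1-203, which encode BCL-XL, had 54.5 and 12.6 FPKM in NC and 37.5 and 6.78 in GAS5. The main MCL1 transcript, MCL1-202, had 41.8 in NC and 39.9 in GAS5.

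MCL1, a short-lived survival protein that restrains BAK1 in particular, had the ratio nearest to NC of the pro-survival genes in GAS5, though not in siYAP, where BCL2L2 was nearer. Its counts were 4724 in NC, against 4275 in GAS5 and 4762 in siYAP, or 4610 and 5156 after scaling. Against NC, the log2 ratio was -0.04 (-0.08 to 0.01) in GAS5 and 0.13 (0.09 to 0.17) in siYAP, and 87.8% of all genes differed more from NC in GAS5.

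BCL2L2 encodes BCL-w, another pro-survival protein. It had 960 counts in NC, 726 with GAS5 and 954 with siYAP, with GAS5 alone standing lower. On the log2 scale the ratio to NC was -0.29 (-0.39 to -0.20) in GAS5 and 0.11 (0.01 to 0.20) in siYAP. BCL2L2 shares exons with the readthrough gene BCL2L2-PABPN1, which had 524 counts in NC, against 562 in GAS5 and 527 in siYAP, so the split of reads between them is uncertain.

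BCL2, the founding member, was barely present. It had 142.5 counts in NC, 124 with GAS5 and 101 with siYAP, and siYAP was the lowest. The log2 ratio was -0.09 (-0.34 to 0.15) in GAS5 and -0.38 (-0.64 to -0.12) in siYAP. The GAS5 value turns on 1 assembled transcript: with Ensembl transcripts alone it was -0.47, outside the interval.

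BAK1, the effector, was higher in both treated groups. Its counts were 822.5 in NC, against 1114 in GAS5 and 1207 in siYAP, with NC below both. Against NC, the log2 ratio was 0.54 (0.45 to 0.64) in GAS5 and 0.67 (0.58 to 0.76) in siYAP, or 45.9% and 58.7% more than NC. A larger difference was seen in 5.50% of all genes in GAS5 and in 4.46% in siYAP. The treated groups stood close together, with GAS5 over siYAP at -0.12 (-0.20 to -0.04). Reads of BAK1 can also match its pseudogenes BAK1P1 and BAK1P2, and how such reads were counted is not stated.

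BIK, a BH3-only protein of the endoplasmic reticulum, had the largest ratio of the family in siYAP. It had 204 counts in NC, 267.5 with GAS5 and 325.5 with siYAP, again with NC the lowest. On the log2 scale the ratio to NC was 0.50 (0.31 to 0.69) in GAS5 and 0.78 (0.61 to 0.97) in siYAP, where 2.35% of all genes differed more. BIK is also the simplest member, with 1 listed transcript, so no split between transcripts enters its value.

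PMAIP1 encodes NOXA, the BH3-only partner of MCL1 and a p53 target. Its counts were 1158.5 in NC, against 1292 in GAS5 and 1521 in siYAP, in that order. The log2 ratio was 0.27 (0.19 to 0.35) in GAS5 and 0.51 (0.43 to 0.59) in siYAP.

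BAD, which binds BCL-XL and BCL2 and is switched off by phosphorylation, had 749 counts in NC, 816 with GAS5 and 920 with siYAP. It followed the same order as PMAIP1. Against NC, the log2 ratio was 0.23 (0.13 to 0.33) in GAS5 and 0.41 (0.31 to 0.51) in siYAP.

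BID, the BH3-only protein that caspase-8 cuts to link death receptors to mitochondria, was on opposite sides of NC. It had 944 counts in NC, against 999 in GAS5 and 820 in siYAP. On the log2 scale the ratio to NC was 0.19 (0.10 to 0.28) in GAS5 and -0.09 (-0.19 to 0.01) in siYAP, where the interval included 0.

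BCL2L11 encodes BIM, which binds every pro-survival member. Its summed counts were 767 in NC, 714 with GAS5 and 789 with siYAP, or 770 and 854 after scaling. It was the BH3-only gene nearest to NC in GAS5, while in siYAP BID was nearer. The log2 ratio was 0.01 (-0.10 to 0.11) in GAS5 and 0.16 (0.05 to 0.26) in siYAP.

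Ratios of 2 members within a group need no scaling between libraries. The pairs below were chosen after their values were seen. There were 12.0 counts of BCL2L1 for each count of BAK1 in NC (11.4 to 12.6), 6.08 in GAS5 (5.81 to 6.36) and 10.1 in siYAP (9.64 to 10.5). The GAS5 ratio was the lowest of the 3. The ratio of MCL1 to BAK1 was 5.74 in NC, against 3.84 in GAS5 and 3.95 in siYAP, and here both treated groups stood below NC. BCL2L1 to PMAIP1 was 8.52 in NC, 5.24 with GAS5 and 7.98 with siYAP, and BCL2L1 to MCL1 was 2.09, 1.58 and 2.55 in the same order. Summed over roles, pro-survival FPKM was 1.80 times the effector and BH3-only FPKM in NC, 1.19 times in GAS5 and 1.80 times in siYAP. These sums take whole genes, whatever form a transcript encodes, and leave out family genes beyond the 10, such as BAX. The pro-survival sum was mostly BCL2L1 in each group.

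**Figure D3:**
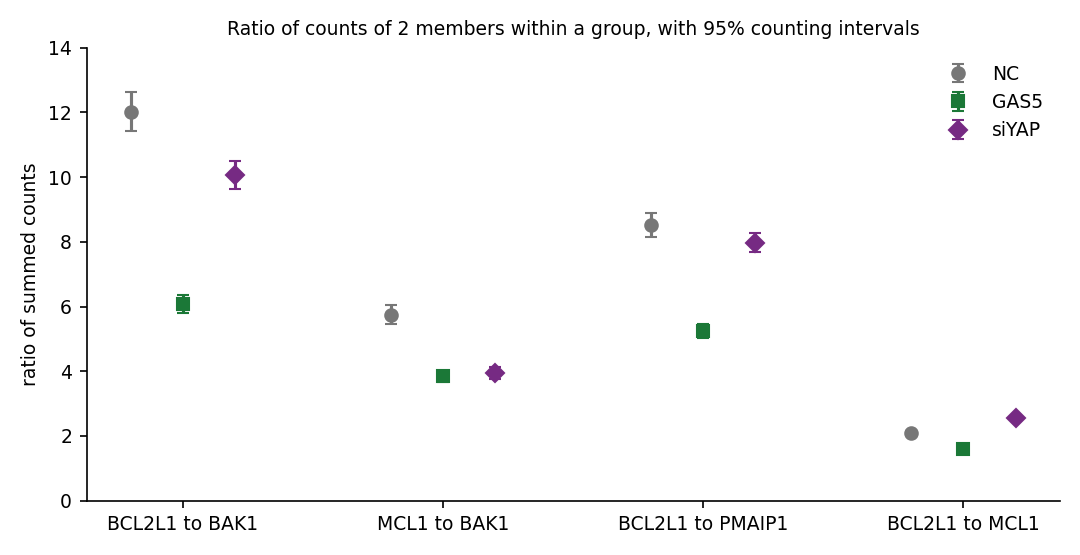
Ratio of summed counts of 2 members within NC (circles), GAS5 (squares) and siYAP (diamonds), with 95% counting intervals. For each pair that starts with BCL2L1 the GAS5 ratio is the lowest, and BCL2L1 to BAK1 is 12.0 in NC, 6.08 in GAS5 and 10.1 in siYAP.

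Several members make proteins of opposed or altered activity through splicing, so counts were also read by transcript. Of the 68 transcripts 61 have an Ensembl identifier, all found in GENCODE 29, and 7 were assembled from the reads. In all, 11 were at 0 in every group. Reads that fit several transcripts were divided by the authors' tool, and the intervals do not cover the error of that division. Among transcripts with at least 50 counts in NC or the treated group, 4 of 30 were past 2-fold in GAS5 (13.3%, beside 12.4% of all such transcripts) and 6 of 33 in siYAP (18.2%, beside 13.1%). The share in GAS5 was thus near that of all transcripts. The share in siYAP was above it by few transcripts, a difference that was not tested. In GAS5 3 were lower and 1 higher, and in siYAP 3 were lower and 3 higher.

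The alternative 5′ splice site of BCL2L1 decides between BCL-XL, which protects cells, and the short form BCL-XS, which lacks part of the groove and opposes it. The stretch printed here is the coding sequence that the 233-codon form has and the 170-codon form lacks, 189 bases at chr20:31721655-31721843 on the minus strand, within a coding exon. Both junctions are shown with the bases after the splice in capitals, since the same downstream exon follows in each.
Long-form stretch of BCL2L1: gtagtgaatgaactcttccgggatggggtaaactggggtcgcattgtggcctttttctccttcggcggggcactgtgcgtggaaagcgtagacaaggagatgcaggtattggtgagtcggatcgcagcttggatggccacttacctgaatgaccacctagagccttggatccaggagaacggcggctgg
BCL2L1-201 (long) junction: gagaacggcggctggGATACTTTTGTGGAA
BCL2L1-202 (short) junction: cagagctttgaacagGATACTTTTGTGGAA
Transcripts of the 233-codon form, BCL2L1-201 and BCL2L1-203, had 4837 counts in NC, against 3004 in GAS5 and 5982 in siYAP. The 170-codon transcript BCL2L1-202 had 448, 421 and 426, or 454 in GAS5 and 461 in siYAP after scaling. Of the complete forms the long one differed between groups, with log2 ratios of -0.58 (-0.62 to -0.53) in GAS5 and 0.42 (0.38 to 0.46) in siYAP, whereas those of the short form were 0.02 (-0.12 to 0.15) and 0.04 (-0.09 to 0.18). Among complete coding transcripts the short form made up 8.48% in NC (7.96 to 9.02), 12.3% in GAS5 (11.5 to 13.1) and 6.65% in siYAP (6.23 to 7.09). The GAS5 share was the highest and the siYAP share the lowest. Of all BCL2L1 counts, those of incomplete and assembled transcripts included, the short form was 4.54% in NC (4.26 to 4.84), 6.22% in GAS5 (5.82 to 6.64) and 3.51% in siYAP (3.29 to 3.75), in the same order.

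A limit of these shares is that 41.1% of BCL2L1 counts in NC, 44.4% with GAS5 and 39.7% with siYAP were assigned to 1 assembled transcript, TCONS_00090698, whose exons are not given in the tables. Its log2 ratios were -0.33 (-0.37 to -0.28) in GAS5 and 0.36 (0.32 to 0.41) in siYAP. A second assembled transcript, TCONS_00090694, had 19.1 counts in NC, against 14.8 in GAS5 and 153 in siYAP, a log2 ratio of 2.99 (2.63 to 3.60) in siYAP. It was minor, with 1.26% of BCL2L1 counts in siYAP. The transcripts with incomplete coding sequence past 2-fold were BCL2L1-205, with 264 counts in NC, 119 with GAS5 and 486 with siYAP, and BCL2L1-207, with 65.7, 18.2 and 59.2. Both were lower in GAS5, at -1.03 and -1.65.

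BIM is made in several splice forms, and the forms without the BH3 motif lack the part that binds partners. The exon of BCL2L11 shown here, 104 coding bases at chr2:111150044-111150147 on the plus strand, holds the 8 codons of the motif, in capitals. BCL2L11-206, the 198-codon extra-long form, contains this exon, and BCL2L11-223, with 135 codons, skips it.
BCL2L11 exon: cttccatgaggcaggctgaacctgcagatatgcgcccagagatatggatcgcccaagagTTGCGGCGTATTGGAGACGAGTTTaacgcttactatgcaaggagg
BCL2L11-223 had 78.5 counts in NC, against 164 in GAS5 and 158 in siYAP. Both treated groups were about as high as each other and above NC, with log2 ratios of 1.15 (0.89 to 1.44) and 1.11 (0.85 to 1.40). BCL2L11-206 had 433 counts in NC, 374 with GAS5 and 494 with siYAP. Its log2 ratios were -0.10 (-0.24 to 0.04) in GAS5 and 0.30 (0.17 to 0.44) in siYAP. A 169-codon form that keeps the motif was lower in both, with 88.5 counts in NC, against 42.9 in GAS5 and 42.2 in siYAP. Thus the gene sum of BCL2L11 was at most 0.16 from NC on the log2 scale, while its 135-codon transcript was over 2-fold higher in both treatments. The assembled transcript TCONS_00079451 had 67.3 counts in NC, 50.7 with GAS5 and 29.9 with siYAP.

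Across the 14 complete coding transcripts of BCL2L11, those without the motif made up 11.5% of counts in NC (9.89 to 13.3), 25.7% in GAS5 (23.5 to 28.2) and 23.6% in siYAP (21.5 to 25.8). PMAIP1 and BID also have such transcripts in the counts. For PMAIP1 the share without the motif went the other way, at 12.3% in NC (11.0 to 13.7), 3.88% in GAS5 (3.20 to 4.70) and 4.90% in siYAP (4.19 to 5.72). For BID it was 34.4% in NC (32.3 to 36.6), 29.8% in GAS5 (27.8 to 31.8) and 43.5% in siYAP (41.1 to 45.9). Thus the BID share was lowest in GAS5 and highest in siYAP. For BAD it was at most 1.17% in any group, and for the remaining members every complete transcript listed keeps the motif.

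**Figure D4:**
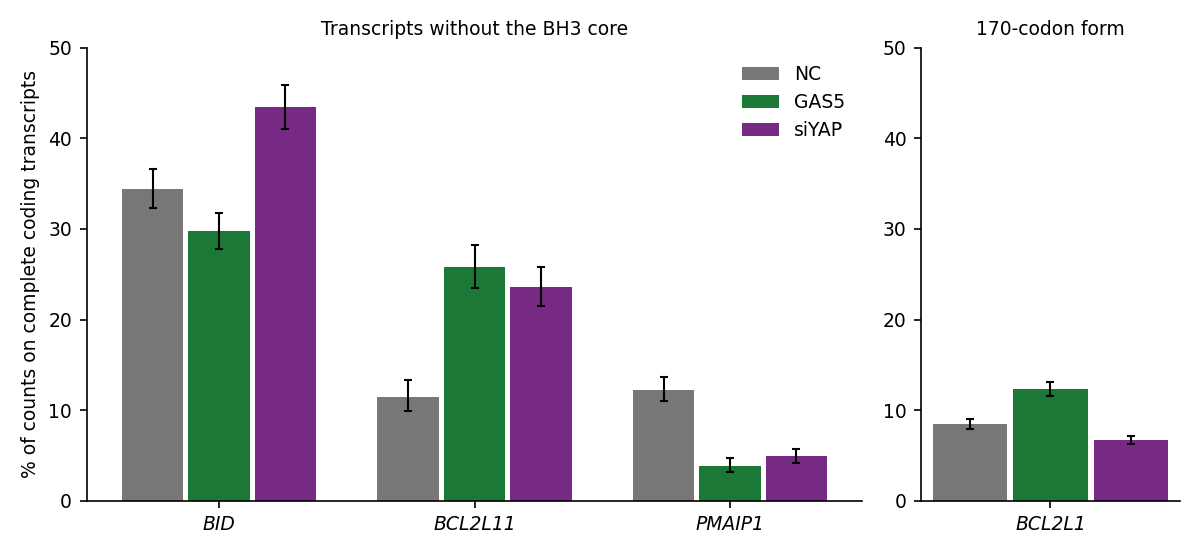
Left, share of counts on complete coding transcripts that lack the BH3 core of BID, BCL2L11 and PMAIP1. Right, share of the 170-codon form of BCL2L1. Bars are NC, GAS5 and siYAP with 95% counting intervals; BCL2L11 reads 11.5% in NC, 25.7% in GAS5 and 23.6% in siYAP, and PMAIP1 reads 12.3%, 3.88% and 4.90%.

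The PMAIP1 transcripts differ by 1 inserted coding exon and also at their ends. On chr18, PMAIP1-201 spans 59900016-59903537 and PMAIP1-202 spans 59899948-59904306. PMAIP1-202 encodes the 54-codon NOXA protein. PMAIP1-201 inserts 151 coding bases at chr18:59900428-59900578 on the plus strand, which shift the reading frame ahead of the motif and give 136 codons. The inserted exon is printed because it changes the protein. Reads at the differing ends can also separate the 2 counts.
PMAIP1-201 inserted exon: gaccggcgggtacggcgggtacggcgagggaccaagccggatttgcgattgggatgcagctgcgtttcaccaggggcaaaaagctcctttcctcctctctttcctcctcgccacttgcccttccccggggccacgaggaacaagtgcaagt
PMAIP1-201 had 142 counts in NC, against 50.2 in GAS5 and 74.5 in siYAP, and PMAIP1-202 had 1016, 1242 and 1447. NC was the highest group for the one and the lowest for the other. The log2 ratios of PMAIP1-201 were -1.36 (-1.72 to -1.07) in GAS5 and -0.80 (-1.10 to -0.53) in siYAP, and those of PMAIP1-202 were 0.40 (0.31 to 0.48) and 0.62 (0.54 to 0.71). The 54-codon transcript was thus further above NC than the gene sum in both treatments.

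BAK1 counts came from 2 transcripts. BAK1-203 has an exon of 20 bases at chr6:33574506-33574525 on the minus strand, in capitals between the neighbouring exon ends, that is absent from BAK1-202. It shortens the reading frame from 211 to 153 codons.
BAK1-203 exon with its neighbours: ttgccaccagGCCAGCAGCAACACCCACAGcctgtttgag
BAK1-202 had 674 counts in NC, 974 with GAS5 and 1021 with siYAP, with log2 ratios of 0.64 (0.54 to 0.74) and 0.71 (0.62 to 0.81). BAK1-203 had 149, 139 and 185, with log2 ratios of 0.01 (-0.23 to 0.25) and 0.42 (0.21 to 0.65). The higher BAK1 sum in GAS5 was in the 211-codon transcript. BAK1-203 made up 18.1% of BAK1 counts in NC, against 12.5% in GAS5 and 15.4% in siYAP.

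The BID transcripts that encode the 195-codon protein did not go together. BID-205 had 263 counts in NC, 399 with GAS5 and 273 with siYAP, while BID-215 had 145, 86.8 and 29.6. The log2 ratio of BID-215 in siYAP was -2.11 (-2.58 to -1.77). BID-209 had 207 counts in NC, against 207 in GAS5 and 150 in siYAP. These transcripts encode a protein of the same length, and together they made up 65.1% of BID counts in NC, 69.4% with GAS5 and 55.3% with siYAP. BID-214, with 122 codons, had 130 counts in NC, against 136 in GAS5 and 130 in siYAP. BID-203, with 99 codons, had 101, 70.4 and 87.9.

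Among the remaining members, 1 transcript or few dominated. MCL1-202, the 350-codon long form, held 96.6% of MCL1 counts in NC, 95.6% with GAS5 and 97.8% with siYAP, and BCL2L2-201 held at least 99.5% of BCL2L2 counts in each group. BAD-201 held 81.5%, 79.8% and 86.3% of BAD counts. BAD-203, which also encodes 168 codons, had 41.6 counts in NC, against 58.2 in GAS5 and 85.0 in siYAP, a log2 ratio of 1.11 (0.77 to 1.52) in siYAP. The assembled BAD transcript TCONS_00025067 went the other way, with 89.4, 97.3 and 37.3 counts. For BCL2 the transcripts are too thin to rank. BCL2-201 had 49.0 counts in NC, 36.7 with GAS5 and 27.0 with siYAP, BCL2-202 had 53.1, 43.0 and 48.1, and the assembled TCONS_00067400 had 22.7, 44.3 and 25.9. BCL2-203 had 17.7 counts in NC and was listed at 0 in the treated groups.

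Other genes of the apoptosis pathway were read from lists, each described by its counts and its median. None of the listed genes that averaged 50 or more counts was past 2-fold in either treatment, beside 1.06% of all genes in GAS5 and 0.773% in siYAP. Of 13 other BCL2 family genes 9 reached that count. Their median log2 ratio was 0.01 in GAS5 and 0.44 in siYAP, beside -0.01 and 0.02 over all genes. BCL2L12 was past 1.5-fold in both, with 706 counts in NC, against 1060 in GAS5 and 1070 in siYAP and log2 ratios of 0.69 (0.60 to 0.79) and 0.71 (0.62 to 0.81). BAX, the other main effector, had 505, 632.5 and 602.5 counts and ratios of 0.43 (0.31 to 0.55) and 0.37 (0.25 to 0.49). Both effectors, BAK1 and BAX, were thus above NC in both treatments, and BAX by less. BOK stood at 0.20 in GAS5 and 0.50 in siYAP. The BH3-only genes BMF and HRK were on opposite sides of NC, at -0.42 (-0.66 to -0.19) and -0.25 (-0.52 to 0.01) in GAS5 and 0.48 (0.28 to 0.68) and 0.48 (0.26 to 0.72) in siYAP. BNIP3L, a mitophagy receptor, was at -0.35 and -0.06, BNIP3 at 0.07 and -0.15, and BCL2L13 at -0.18 and -0.03. BBC3, which encodes PUMA, was at 0.01 (-0.13 to 0.14) and 0.44 (0.32 to 0.57).

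Downstream of the mitochondria, of 21 apoptosome, caspase and inhibitor genes 20 reached a mean count of 50. None was past 1.5-fold, where 4.44% of all genes were in GAS5 and 7.21% in siYAP, and the medians were 0.14 in GAS5 and 0.07 in siYAP. In GAS5 BIRC3 (0.46), an inhibitor of apoptosis, and CYCS (0.29), which encodes cytochrome c, were among the highest, and the lowest were XIAP (-0.21), CASP9 (-0.16) and BIRC2 (-0.11). In siYAP the highest were CASP10 (0.43), CASP9 (0.33) and VDAC1 (0.22), a channel of the outer membrane, and the lowest were CASP6 (-0.32), APAF1 (-0.29) and BIRC3 (-0.24). CASP9 and BIRC3 thus stood on opposite sides of NC in the 2 treatments.

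In the death receptor arm 7 of 8 genes reached a mean count of 50. None was past 1.5-fold, beside 4.44% of all genes in GAS5 and 7.21% in siYAP. The medians were 0.15 in GAS5 and 0.27 in siYAP, beside -0.01 and 0.02 over all genes. In GAS5 the highest were TRADD (0.49) and FAS (0.30), followed by FADD (0.24), and the lowest were TNFRSF10B (-0.30), a receptor for TRAIL, CFLAR (-0.18) and RIPK1 (-0.13). In siYAP the highest were FADD (0.52), TNFRSF10A (0.40) and TNFRSF10B (0.32), and the lowest were CFLAR (-0.35), an inhibitor of CASP8, FAS (-0.32) and RIPK1 (0.10). FAS and TNFRSF10B, like BCL2L1, BCL2L2, MCL1 and BID, lay on opposite sides of NC in the 2 treatments. The intervals of MCL1 in GAS5 and BID in siYAP included 0, however, and that of BCL2L2 in siYAP came near 0 (0.01 to 0.20).

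MCL1 and BAD proteins are set by degradation and phosphorylation, which RNA counts do not show. Of 14 genes that encode their ubiquitin ligases, deubiquitinase, kinases and phosphoprotein-binding YWHA partners, all reached a mean count of 50. None was past 1.5-fold, beside 4.44% of all genes in GAS5 and 7.21% in siYAP. The medians were -0.03 in GAS5 and -0.02 in siYAP, beside -0.01 and 0.02 over all genes. In GAS5 the highest were SFN (0.36), FBXW7 (0.26) and YWHAH (0.18), and the lowest HUWE1 (-0.28), USP9X (-0.28) and GSK3B (-0.28). In siYAP the highest were SFN (0.42), YWHAG (0.21) and PRKACA (0.18), and the lowest HUWE1 (-0.25), RPS6KB1 (-0.21) and YWHAQ (-0.12). HUWE1, a ligase for MCL1, was lower and SFN higher than NC in both treatments.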

How the data were processed

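Strand-marked RNA libraries of HCT116 cells were sequenced, 2 per group. The submitters' processing notes name TopHat2 2.1.1, and the counting tool, genome build and annotation are not given in the sources used here. The expected counts deposited by the authors are estimated counts per mRNA transcript, averaged over the 2 libraries of a group. Of gene sums above 0, 86.7% lie within 0.02 of a multiple of 0.5, and single transcripts often do not. The deposited FPKM are averaged the same way, with 0 written as 0.001. The authors' columns of log2 ratios, p-values and FDR for each transcript were not used.

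The 2 tables were joined by transcript, and counts were summed by the symbol of the siYAP table, which 339 transcripts lack. Transcripts kept by filterByExpr (minimum count 10) gave TMM factors in edgeR 4.0.16 with R 4.3.3; ratios and intervals were computed in Python 3.11.15 (pandas 2.3.3). Genes were compared at a mean count of at least 50 over the 3 groups. Without libraries no count test could be run, so DESeq2 1.42.0 gave size factors only. The steps were tested on simulated data. Sequences and coordinates are from GENCODE 29 (GRCh38), which holds 99.9% of the Ensembl transcripts.

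The members, pathway lists and rules were chosen with earlier results of these data known. Transcripts were named at 10% or more of the counts of a member in any group, or past 2-fold with at least 50 counts. From each pathway list the genes past 2-fold, or else the 3 highest and 3 lowest ratios, were named, and BBC3, BCL2L1-202 and BCL2L1-203 and the shares of forms with and without the BH3 motif were added after values were seen. A gene that this rule would name is not reported here.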

Additional observations from a re-analysis of the deposited data

How the results depend on the processing

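The counts of members past 2-fold were 0 in both comparisons under DESeq2 size factors, scaling by total counts, TMM on gene sums, a prior count of 0.5, no filter on low counts, the filterByExpr minimum, summed FPKM, symbols of the GAS5 table and Ensembl transcripts alone. With the call at 1.5-fold they were 0 in GAS5 and 2 in siYAP. Over 90 member values per comparison, the sign changed in 2 in GAS5, both of BCL2L11, and in 0 in siYAP. Those 90 include settings that change only the filter on low counts, which cannot move a member value. Symbols of the GAS5 table gave the main values again, so the 90 overstate how much was varied. A member value left its counting interval in 3 cases in GAS5 and 9 in siYAP. The members were BCL2, BCL2L1 and PMAIP1 in GAS5, and BCL2L1, MCL1, BAD, BCL2L11 and PMAIP1 in siYAP. In siYAP, MCL1 was at 0.06 under scaling by total counts, and BCL2L11 was at 0.03 as summed FPKM. BCL2L2 stayed within its interval in siYAP, but was at 0.04 both under scaling by total counts and as summed FPKM. The largest shifts were 0.38 in GAS5, for BCL2, which was at -0.47 with Ensembl transcripts alone, and 0.17 in siYAP. Of 28 named transcripts, 14 differed in share from NC by at least 5 percentage points in either treatment. It was 15 by FPKM share, 12 of 23 without assembled transcripts and 13 of 27 at 10 or more counts in every group. Transcripts were named at a share of 10% or past 2-fold, which favours such differences. The same count over all transcripts was not computed, so it cannot be read as a trait of the family.

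No paired analysis was possible because only a mean over the libraries of each group is given. Leaving out a library and the fit with a replicate block were not run for the same reason. The spread between cultures is therefore unknown, and the depth bears most on BCL2, BIK and single transcripts with under 100 counts. Reads of antisense or overlapping genes (ABALON over BCL2L1, GPR137 over BAD, MIR4435-2HG over BCL2L11, GGNBP1 over BAK1) cannot be told apart from those of the members unless the counting used strand, which is not stated.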
